A study of Oryza sativa with 12 samples.

Results

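Gibberellin is the growth hormone behind stem elongation and many steps of flower development in rice, and 10 genes of its synthesis, inactivation and signalling were followed here in the abscission zone, the cell layer at the base of the spikelet where a ripe grain breaks off. The 10 genes were set by a list of locus IDs that uses no measured value as a criterion but was drawn up with earlier results of these data known, out of 55986 IDs in the ossh1 table and 11688 distinct IDs in the oscct table. They are the synthesis oxidases GA20ox1 (LOC_Os03g63970), SD1, also called GA20ox2 (LOC_Os01g66100), and GA3ox2 (LOC_Os01g08220). Then come the inactivating enzymes GA2ox1 (LOC_Os05g06670), GA2ox3 (LOC_Os01g55240), GA2ox6 (LOC_Os04g44150) and EUI (LOC_Os05g40384). The signalling genes are GID1 (LOC_Os05g33730), SLR1 (LOC_Os03g49990) and GID2 (LOC_Os02g36974). The names follow that list of IDs. For GA20ox1, GA3ox2, GA2ox1, GA2ox3 and GA2ox6 the RefSeq reference table holds no record of that name, so their names were not checked. For the other 5 a record of that name lies within 5% of the chromosome from the place of the ID, a coarse check of position only. All 10 were in the ossh1 table and passed its filter on low counts. The oscct table lists 7 of them, and SD1, GA2ox3 and GA2ox6 are not listed there.

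As background, GA20 oxidases and then GA3 oxidases carry out the last steps that make bioactive gibberellin. GA2 oxidases and the cytochrome P450 EUI inactivate gibberellins or their precursors. Bioactive gibberellin binds the receptor GID1, which then binds the DELLA repressor SLR1, and the F-box protein GID2 marks SLR1 for destruction. Loss of SD1 gives the semi-dwarf stature of modern rice, and loss of EUI gives a long uppermost internode. In rice, as in other plants, bioactive gibberellin is known to lower transcripts of its synthesis oxidases and to raise those of GA2 oxidases.

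RNA was sequenced from abscission zones taken on the day of flowering, in 12 libraries that fall into 4 groups of 3. One mutant, oscct, is set against the wild type CK, and the other, ossh1, against the wild type WT. Each library is a pool of 5 plants, and the labels name no allele, line or variety for any group beyond mutant and wild type. Plants grew in the field at either of 2 places that the labels do not tie to groups, so place, line background and mutation cannot be told apart. In a bulk sample, fewer cells of a type and less RNA per cell cannot be told apart either.

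Listed counts per library summed to between 12526152 and 12812857 in oscct and between 12943437 and 13318397 in CK, in a table that holds part of each library only. Totals ran from 27044341 to 28600944 in ossh1 and from 30382846 to 32055561 in WT. LOC_Os03g44710, taken as OsSh1 from general knowledge because the files pair no ID with a name, had 59, 34 and 32 counts in ossh1 against 2390, 2377 and 2664 in WT, so it was low in each library labelled ossh1. The locus of OsCCT22 was not analysed here. Of 6 loci taken as abscission zone markers, 5 were well above 0 in ossh1 or WT, among them the KNOX gene OSH15 at 223 ± 5.12 CPM in ossh1 and 181 ± 2.07 CPM in WT (SD, n = 3 each). The sixth, LOC_Os04g57530, taken as SH4 from general knowledge, was close to absent. It averaged 0.174 CPM in ossh1 and 0.0723 CPM in WT.

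Levels are given as CPM, counts per 1000000 counts of the genes tested after TMM scaling, which sets the bulk of genes equal between libraries. The oscct table is scaled on its own listed counts, so its CPM values are not comparable with those of ossh1 and WT. Transcript lengths were not used, so levels are compared between groups for 1 gene and never between genes. Changes are log2 fold changes of mutant over control from edgeR's quasi-likelihood test, adjusted by Benjamini-Hochberg over all genes tested, and a gene is called at an adjusted p under 0.05.

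The oscct table lists rows that differ between oscct and CK, with nearly all rows of small difference missing. Of 11518 IDs tested there, 99.2% were called, 48.9% higher and 50.3% lower in oscct, and libraries of the groups did not overlap for 98.3%. A call of a listed gene therefore adds nothing to its being listed, and its p-value has no usual meaning. The sizes of the changes and the values per library are what that table gives. TMM sets the bulk of genes equal, but few of these rows are equal between groups. Small changes in oscct therefore depend on the scaling. The median over these IDs was -0.088 on the log2 scale with TMM and 0.080 with library totals alone.

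GA20ox1 and GA3ox2, which act one after the other in synthesis, were both several-fold higher in oscct than in CK. GA20ox1 had 4137, 4833 and 4269 counts in oscct and 925, 896 and 900 in CK. The groups were far apart, with every oscct library above 4 times any CK library. Scaled levels were 329 ± 28.7 CPM in oscct and 73 ± 1.29 CPM in CK (SD, n = 3 each), 4.51-fold higher in oscct (log2 fold change 2.17, SE 0.054, adjusted p = 3.41e-15, edgeR). GA3ox2 had 698, 700 and 678 counts in oscct against 162, 132 and 122 in CK. It was at 51.6 ± 1.51 CPM in oscct and 11.2 ± 1.66 CPM in CK (SD, n = 3 each), a 4.62-fold higher level in oscct (log2 fold change 2.21, SE 0.083, adjusted p = 4.96e-13, edgeR). Among the IDs tested in this table, 3.19% had a log2 fold change as high as that of GA20ox1 or higher, and 3.04% one as high as that of GA3ox2. SD1, also a GA20 oxidase, was not listed for oscct.

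GA20ox1 and SD1 fell in ossh1, by less than 1.5-fold, and GA3ox2 was not called. GA20ox1 had 1675, 1636 and 1738 counts in ossh1 and 2381, 2534 and 2532 in WT. Part of that gap is library size, and the scaled levels were 63.1 ± 0.808 CPM in ossh1 and 77.2 ± 3.23 CPM in WT (SD, n = 3 each). All ossh1 libraries lay below all WT libraries. GA20ox1 fell by 0.29 on the log2 scale (SE 0.045, adjusted p = 4.83e-07, edgeR). SD1 had 418, 379 and 379 counts in ossh1 against 612, 617 and 693 in WT, again without overlap after scaling. It fell to 14.7 ± 1.19 CPM in ossh1, against 19.9 ± 0.94 CPM in WT (SD, n = 3 each; log2 fold change -0.44, SE 0.081, adjusted p = 1.24e-05, edgeR). For GA3ox2, the 529, 543 and 593 counts in ossh1 and 651, 623 and 582 in WT scaled to overlapping ranges, 20.2 to 21.3 CPM in ossh1 and 17.6 to 20.3 CPM in WT. Its log2 fold change was 0.11 with a 95% interval from -0.040 to 0.26 (adjusted p = 0.204, edgeR), an interval that excludes a change in ossh1 of the size seen in oscct.

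**Figure D1:**
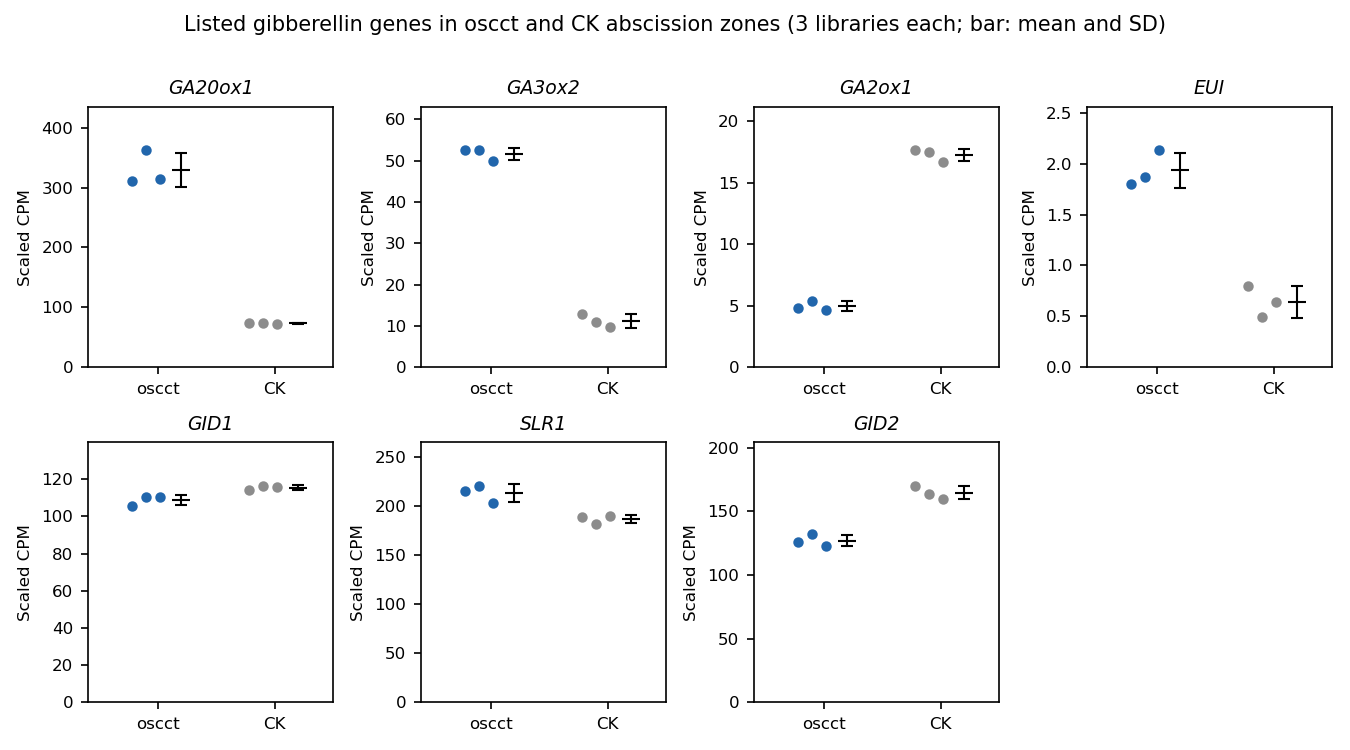
Scaled CPM of the 7 listed gibberellin genes in the 3 oscct and 3 CK libraries, 1 panel per gene with its own axis from 0; points are libraries and the black mark is the mean with its SD. GA20ox1 and GA3ox2 stand far higher in oscct and GA2ox1 far lower, while GID1 and SLR1 lie close between the groups.

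Of the inactivating enzymes, GA2ox1 and EUI were listed for oscct, and they differed from CK in opposite directions. GA2ox1 had estimated counts of 64.43, 71.8 and 63.02 in oscct and 219.88, 212.99 and 210.15 in CK. Its highest oscct library was under the lowest CK library by more than 100 counts. The scaled level was 4.95 ± 0.399 CPM in oscct and 17.3 ± 0.488 CPM in CK (SD, n = 3 each), 3.48-fold lower in oscct (log2 fold change -1.80, SE 0.10, adjusted p = 1.33e-10, edgeR). None of its 6 estimated counts was whole, which means that reads were divided between features in making them. EUI was a low-count gene, with 24, 25 and 29 counts in oscct and 10, 6 and 8 in CK. Its level was 1.94 ± 0.173 CPM in oscct and 0.643 ± 0.155 CPM in CK (SD, n = 3 each), 2.98-fold higher in oscct with a 95% interval on the log2 scale from 0.96 to 2.19.

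GA2ox6 had the widest change of the 10 genes in ossh1. It had 215, 210 and 198 counts in ossh1 and 41, 46 and 24 in WT. All ossh1 libraries were above all WT libraries, at 7.8 ± 0.597 CPM in ossh1 and 1.16 ± 0.385 CPM in WT (SD, n = 3 each). GA2ox6 was 6.75-fold higher in ossh1 (log2 fold change 2.75, SE 0.19, adjusted p = 1.25e-16, edgeR), and 1.24% of the genes tested rose as much or more. GA2ox3 went the other way, with 4434, 4311 and 4730 counts in ossh1 and 8852, 8731 and 8913 in WT. It fell to 168 ± 2.41 CPM in ossh1, against 275 ± 4.64 CPM in WT (SD, n = 3 each), 1.63-fold lower in ossh1 (log2 fold change -0.71, SE 0.032, adjusted p = 3.4e-22, edgeR). Leaving out any 1 library kept the log2 fold change of GA2ox3 between -0.72 and -0.69 and that of GA2ox6 between 2.5 and 2.96.

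The remaining inactivating enzymes rested on few counts in ossh1 and WT. GA2ox1 had 18, 22 and 10 counts in ossh1 and 33, 38 and 22 in WT. The scaled groups overlapped and GA2ox1 was not called (log2 fold change -0.62, 95% interval from -1.38 to 0.14, adjusted p = 0.153, edgeR). EUI had 40, 24 and 39 counts in ossh1 and 30, 18 and 16 in WT, with a lowest ossh1 library of 0.922 CPM under the highest WT library of 0.937 CPM. It was called higher in ossh1 (log2 fold change 0.95, SE 0.34, adjusted p = 0.0163, edgeR). The call of EUI was lost, at adjusted p from 0.0541 to 0.0823, without WT replicate 2, WT replicate 3, ossh1 replicate 1 or ossh1 replicate 3, and over all alternatives its adjusted p ran from 0.00369 to 0.0823.

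**Figure D2:**
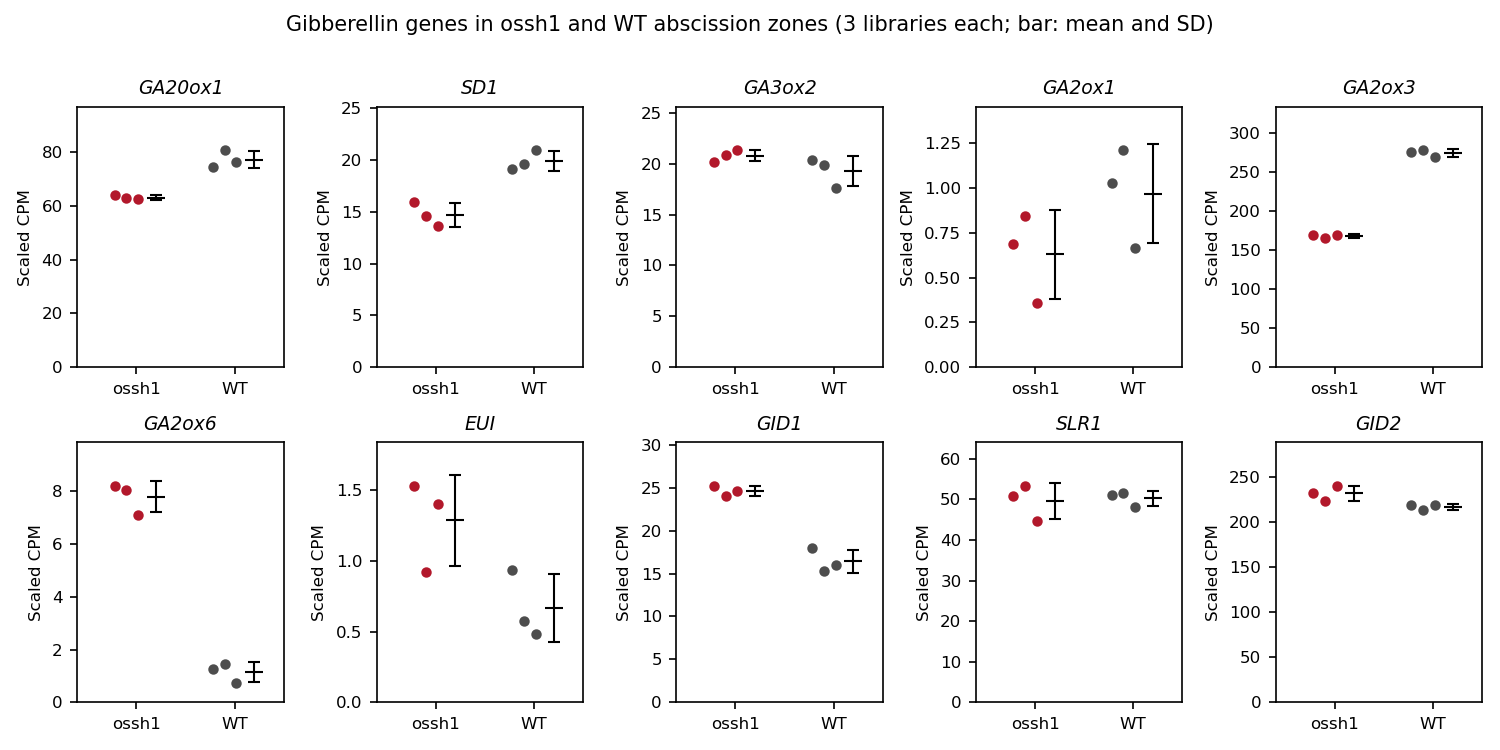
Scaled CPM of all 10 gibberellin genes in the 3 ossh1 and 3 WT libraries, 1 panel per gene with its own axis from 0; points are libraries and the black mark is the mean with its SD. GA2ox6 and GID1 stand higher in ossh1, GA20ox1, SD1 and GA2ox3 stand lower, and the groups overlap for GA3ox2, GA2ox1, EUI and SLR1.

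The receptor gene GID1 rose in ossh1 and was nearly level between oscct and CK. It had 660, 624 and 685 counts in ossh1 and 574, 479 and 531 in WT. Scaled, this was 24.6 ± 0.628 CPM in ossh1 and 16.4 ± 1.37 CPM in WT (SD, n = 3 each), with no overlap and a 1.5-fold higher level in ossh1 (log2 fold change 0.58, SE 0.075, adjusted p = 9.71e-09, edgeR). In the other table GID1 had 1408, 1473 and 1500 counts in oscct and 1427, 1423 and 1455 in CK. GID1 fell in oscct by 0.086 on the log2 scale (SE 0.037, adjusted p = 0.0335, edgeR), but the direction depends on the scaling. With library totals alone it was 0.083 higher in oscct, at adjusted p = 0.044. The call was lost with RLE scaling, with DESeq2, in a fit of all 12 libraries, and without CK replicate 1, 2 or 3 or oscct replicate 1, and over all alternatives the adjusted p ran from 0.00252 to 0.289.

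SLR1, the DELLA repressor, was slightly higher in oscct and not called in ossh1. It had 2869, 2945 and 2757 counts in oscct and 2360, 2222 and 2382 in CK, or 213 ± 9.26 CPM in oscct and 187 ± 4.16 CPM in CK (SD, n = 3 each). The groups did not overlap, and the level was 1.14-fold higher in oscct (log2 fold change 0.19, SE 0.036, adjusted p = 0.00013, edgeR). In ossh1 SLR1 had 1328, 1389 and 1242 counts, against 1634, 1619 and 1593 in WT, which scaled to 49.6 ± 4.47 CPM in ossh1 and 50.3 ± 1.84 CPM in WT (SD, n = 3 each). The log2 fold change was -0.020, with a 95% interval from -0.13 to 0.092 (adjusted p = 0.78, edgeR).

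LOC_Os02g36974, the ID of the F-box gene GID2, was lower in oscct and marginally higher in ossh1. Its value cannot be read as GID2 alone, because the reference table holds a GID2 record that overlaps 2 other records. That GID2 record itself also carries the name GF14E, which is used for a 14-3-3 protein. Of the 2 others, a protein-coding record also carries the name GID2, and a non-coding RNA record is named GF14E. How much of the count belongs to GID2 is not known. Where GID2 is counted below, the name stands for this ID. In the oscct table the ID had 3 rows, which summed to 1678.19, 1761.26 and 1674.78 in oscct and 2124.53, 1998.32 and 2010.17 in CK. All oscct sums lay below all CK sums, and the ID fell by 0.37 on the log2 scale (SE 0.038, adjusted p = 1.52e-07, edgeR). The 3 rows taken singly had log2 fold changes of -0.20, -0.45 and -0.41, so none ran against the sum. In ossh1 the ID had 6068, 5815 and 6683 counts, against 6991, 6687 and 7247 in WT, and scaled to 232 ± 8.43 CPM in ossh1 and 217 ± 3.3 CPM in WT (SD, n = 3 each). That rise was small (log2 fold change 0.097, SE 0.033, adjusted p = 0.0113, edgeR). It was lost without WT replicate 2, at adjusted p = 0.0794, and with library totals alone, where the log2 fold change was 0.0013.

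Counted over the 10 genes, 4 were higher in ossh1 (GA2ox6, EUI, GID1 and GID2), 3 were lower (GA20ox1, SD1 and GA2ox3) and 3 were not called (GA3ox2, GA2ox1 and SLR1). Of all 22669 genes tested in ossh1, 58.3% were called, 29.2% higher and 29.1% lower. The share called among the 10 is near that of all genes. Groups did not overlap for 6 of the 10, against 62.3% of all genes tested. The median log2 fold change of the 10 was 0.039, beside -0.012 for all genes, and their median absolute change was 0.51, beside 0.33. With library totals alone, 38.6% of the called genes in ossh1 were higher instead of 50.1%, and the median of all genes was -0.11 on the log2 scale. In the oscct table, 4 of the 7 listed genes were higher (GA20ox1, GA3ox2, EUI and SLR1) and 3 lower (GA2ox1, GID1 and GID2), all without overlap. Of all IDs tested there, 99.2% were called, 48.9% higher and 50.3% lower, and 98.3% did not overlap. The counts of the 7 genes therefore say nothing particular about them. GA20ox1, GA3ox2 and EUI were at least 2-fold higher and GA2ox1 at least 2-fold lower in oscct, where 14.3% of all IDs tested were that much higher and 12.6% that much lower. GA2ox6 alone of the 10 moved 2-fold in ossh1, where 8.10% of all genes tested were that much higher.

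**Figure D3:**
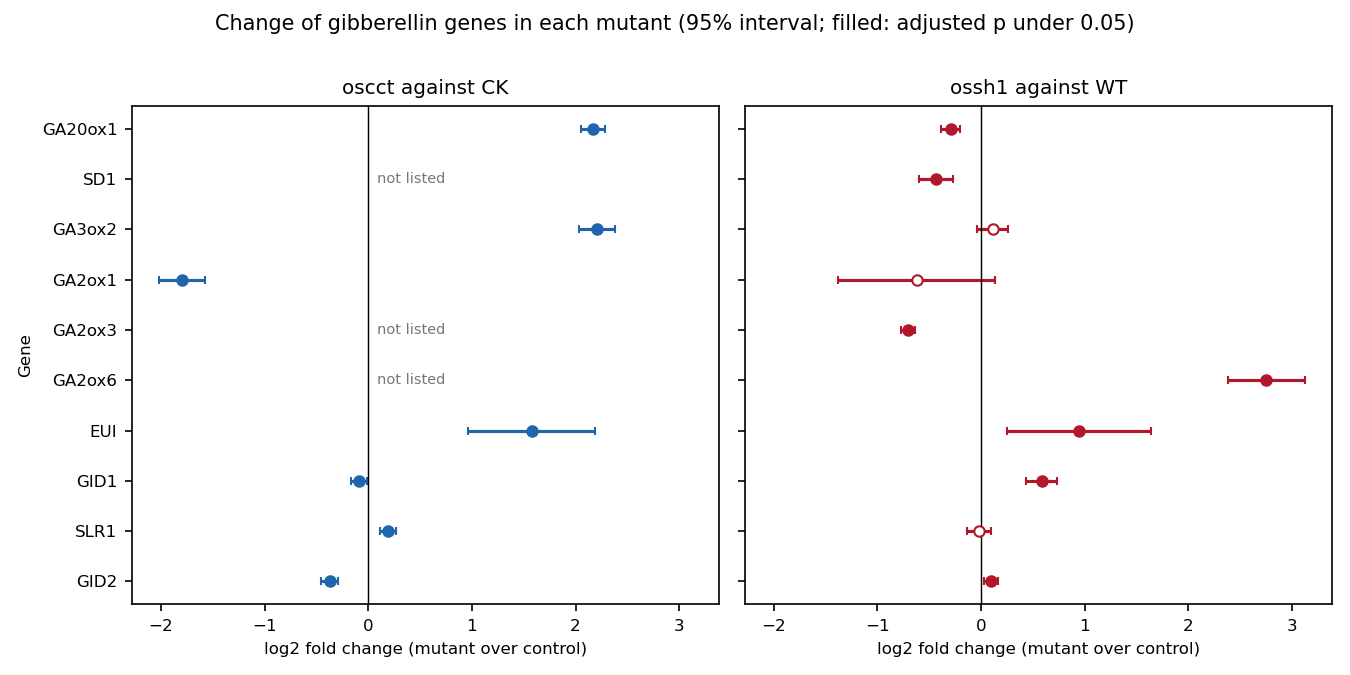
Log2 fold change of each gibberellin gene with its 95% interval, in oscct against CK on the left and in ossh1 against WT on the right; filled points have an adjusted p under 0.05. GA20ox1 and GA3ox2 lie above 2 in oscct and near 0 in ossh1, and GA2ox6 is the point farthest from 0 in ossh1.

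**Figure D4:**
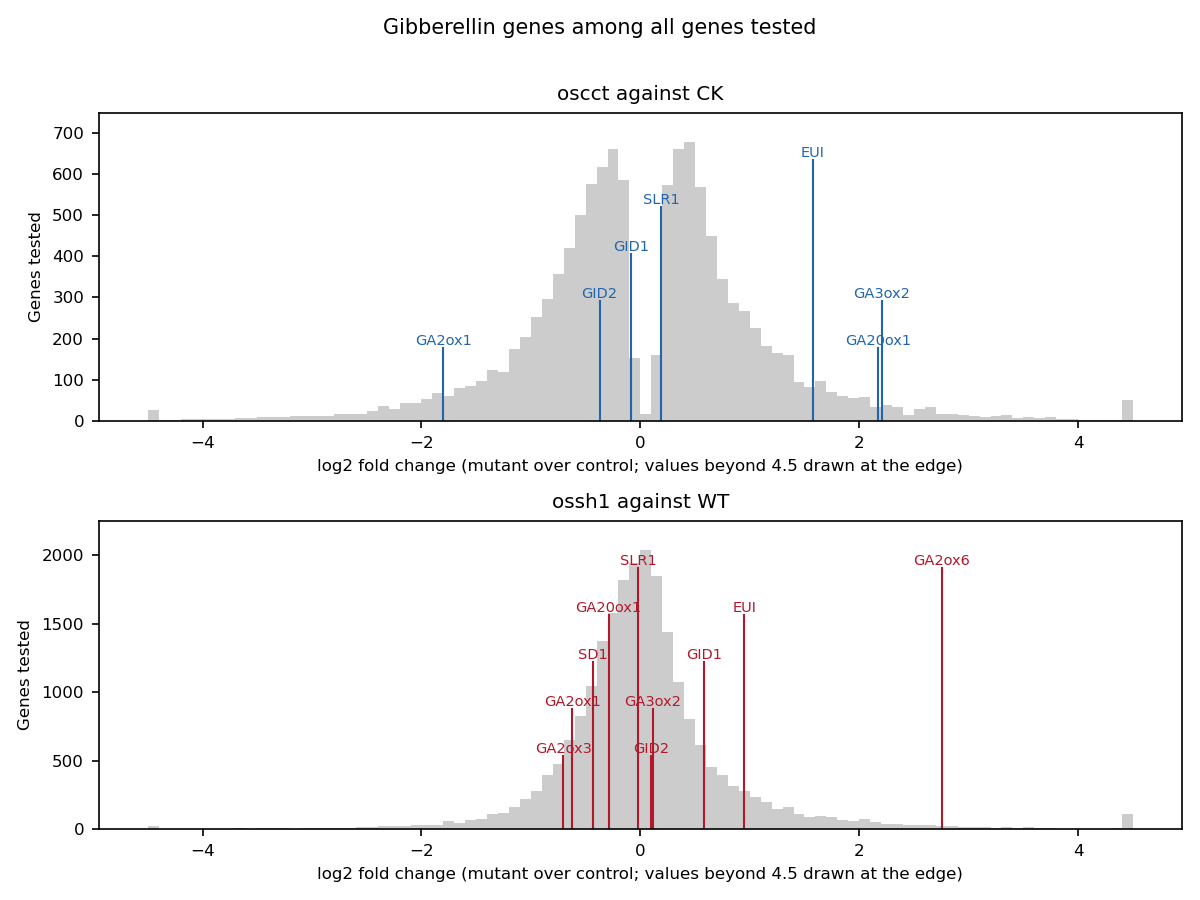
Histogram of the log2 fold changes of all genes tested (grey; genes on the vertical axis) with the gibberellin genes marked by lines, oscct against CK above and ossh1 against WT below; line heights only separate the names. The gap near 0 in the upper panel shows the rows that the oscct table leaves out, and GID1 and SLR1 lie close to its edges.

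Whether a gene's change differed between the mutants was tested in one model of all 12 libraries, for the 7 genes in both tables. The change differed for 6 of the 7, 3 with oscct above ossh1 and 3 below. Of 11643 IDs tested this way, 80.4% differed, 40.8% with oscct above and 39.5% below, and all had to be listed for oscct to enter. The change of GA20ox1 was 2.46 log2 units higher in oscct than in ossh1 (95% interval from 2.31 to 2.61, adjusted p = 3.24e-20, edgeR), and that of GA3ox2 was 2.10 higher (1.85 to 2.34, adjusted p = 2.32e-14). For GID1 the change in oscct was 0.67 log2 units below that in ossh1 (SE 0.075, adjusted p = 1.44e-08, edgeR), a difference that was -0.41 with library totals alone. EUI was the exception. Its estimate was above control in both mutants, though its call in ossh1 was lost when some single libraries were left out. The difference was 0.63 log2 units, with a 95% interval from -0.34 to 1.61 (adjusted p = 0.22, edgeR). At such low counts that interval leaves room for equal changes and for a 2-fold difference.

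A further 17 loci of gibberellin synthesis, inactivation and signalling were listed from general knowledge of rice loci. For 8 of them the reference table holds a gene of that name within 5% of the chromosome from the place of the ID. That check is too coarse to show that the ID is that gene. The others are given by ID only. In oscct, 6 were listed and all 6 were called, as 99.2% of all IDs tested there were, 3 higher and 3 lower. CPS1, the enzyme of the first committed step from the common diterpenoid precursor, was 2.78-fold higher, at 115 ± 1.85 CPM in oscct and 41.2 ± 2.59 CPM in CK (SD, n = 3 each; log2 fold change 1.48, SE 0.048). KO2, the ent-kaurene oxidase that acts before the GA oxidases, was 1.83-fold higher, at 113 ± 2.77 CPM in oscct and 61.9 ± 2.4 CPM in CK (SD, n = 3 each). Its 2 rows rose alike, but its counts are estimated and its record in the reference table overlaps another, so reads of other features may be among them. KAO, the ent-kaurenoic acid oxidase of the step after KO2, was instead 2.16-fold lower, with 140, 118 and 125 counts in oscct and 264, 239 and 263 in CK. The early steps thus held both higher and lower genes in oscct, and KS1, the ent-kaurene synthase between CPS1 and KO2, was not listed.

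The widest change among these loci in oscct was that of LOC_Os05g48700. It had 18, 16 and 20 counts in oscct and 280, 243 and 271 in CK, 15.8-fold lower in oscct (log2 fold change -3.98, SE 0.14, adjusted p = 1.43e-13, edgeR). In ossh1 it had 0, 0 and 1 counts, against 12, 8 and 3 in WT, and was too low to test. LOC_Os05g34854 was 3.63-fold higher in oscct, at 14.8 ± 1.68 CPM in oscct and 4.08 ± 0.271 CPM in CK (SD, n = 3 each). Its estimated counts were 216.92, 202.73 and 176.88 in oscct and 47.5, 49.05 and 55.08 in CK. None was whole, so reads were divided between features here too. In ossh1 the same locus was 1.4-fold higher (log2 fold change 0.49, SE 0.14, adjusted p = 0.00213, edgeR). LOC_Os02g41954 was 1.54-fold lower in oscct and, in the other comparison, 6.83-fold higher in ossh1.

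In ossh1, 12 of the 17 loci had enough counts to test, of which 6 were higher, 1 was lower and 5 were not called. Called loci were thus about as frequent here as among all genes tested in ossh1, of which 58.3% were called, 29.2% higher and 29.1% lower. LOC_Os02g41954 had 256, 143 and 192 counts in ossh1 and 34, 38 and 32 in WT (log2 fold change 2.77, SE 0.20, adjusted p = 1.15e-15, edgeR). LOC_Os01g11150 had 129, 137 and 87 counts in ossh1 and 45, 60 and 54 in WT, 2.68-fold higher in ossh1 (adjusted p = 9.23e-08, edgeR). LOC_Os07g01340 had 24, 12 and 18 counts in ossh1 and 2 in each WT library. CPS1 was called slightly higher in ossh1 (log2 fold change 0.11, SE 0.043, adjusted p = 0.0215, edgeR), a call lost with library totals alone, where it was 0.018, and without WT replicate 2 or 3 or ossh1 replicate 1 or 3. KO2 and KAO were not called, with log2 fold changes in ossh1 of 0.012 and 0.028. SPY, a glycosyltransferase known as a negative regulator of gibberellin response, fell by 0.14 on the log2 scale (SE 0.035, adjusted p = 0.000762, edgeR). The DELLA-like gene SLRL1 was called higher (log2 fold change 0.88, SE 0.30, adjusted p = 0.0106, edgeR), although its 63, 28 and 57 counts in ossh1 and 38, 20 and 39 in WT overlapped after scaling. Its call was lost without WT replicate 2, at adjusted p = 0.0873, and without ossh1 replicate 1, at adjusted p = 0.111. GAMYB, a transcription factor of gibberellin response in anthers and seeds, and KS1 were not called, with log2 fold changes of -0.054 and -0.068. KS1 was called lower with library totals alone, at -0.16, and without ossh1 replicate 3, at -0.13. GA20ox3 had at most 2 counts in any ossh1 or WT library.

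**Figure D5:**
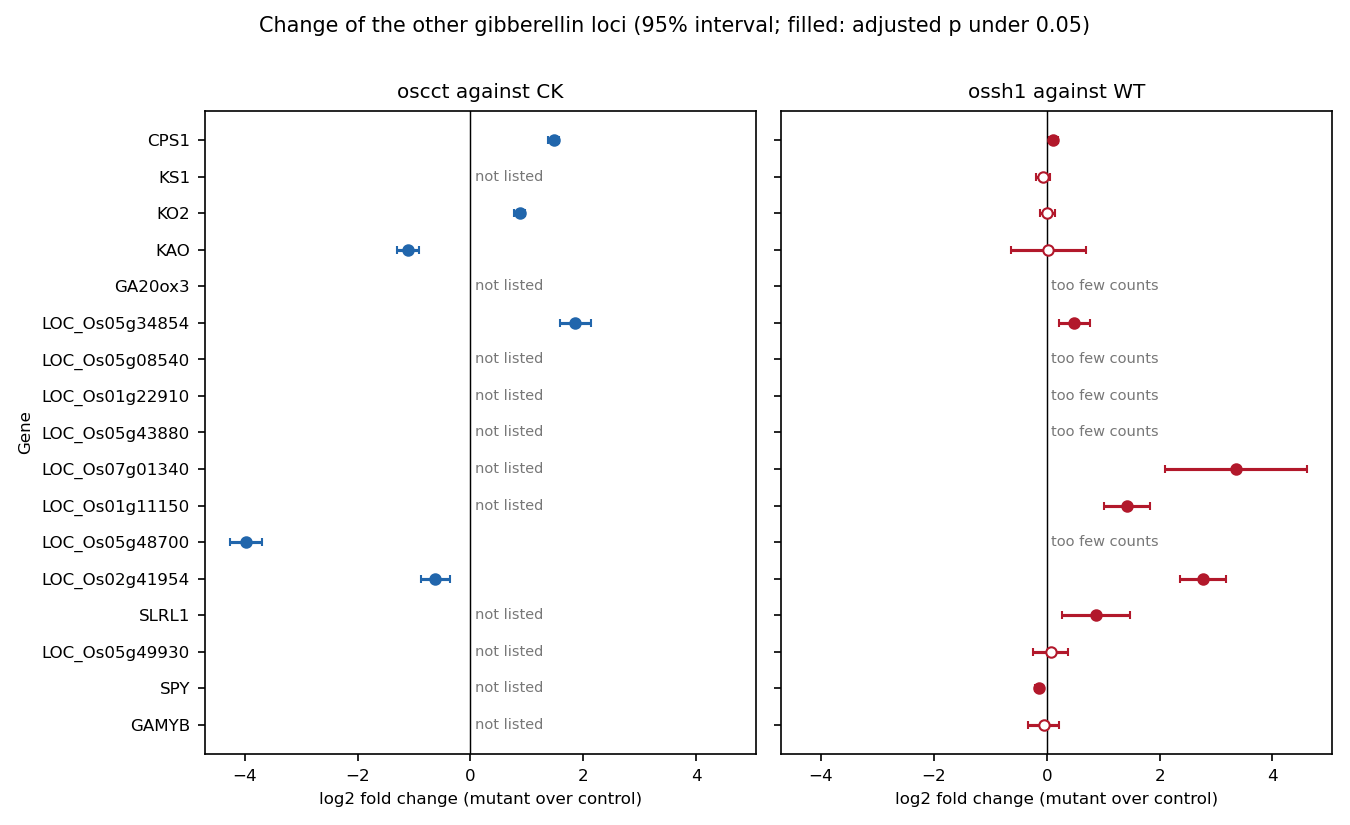
Log2 fold change with its 95% interval of the 17 other gibberellin loci, in oscct against CK on the left and in ossh1 against WT on the right; filled points have an adjusted p under 0.05, and loci without a name in the reference table are given by ID. LOC_Os05g48700 is farthest from 0 in oscct, and LOC_Os07g01340, which had 2 counts in each WT library, has the widest interval in ossh1.

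The 6 abscission zone loci, OsSh1 among them, summed to between 399.95 and 432 CPM in ossh1 and between 431 and 446 CPM in WT. Those ranges overlapped. Without OsSh1, which is itself mutated in ossh1, the other 5 summed to between 398.8 and 431 CPM in ossh1 and between 356 and 365 CPM in WT. Of these 5, OSH15 and LOC_Os01g62920 were called higher in ossh1. SHAT1 and LOC_Os05g38120, taken as SH5 from general knowledge, were not called (adjusted p = 0.344 and 0.104, edgeR). LOC_Os04g57530 was too low to test. For oscct and CK, 4 of the 6 were listed, with a sum between 843 and 869 CPM in oscct and between 753 and 775 CPM in CK, and they did not move together. OSH15 was at 568 ± 15.5 CPM in oscct and 412 ± 12.3 CPM in CK, and SHAT1 at 72.9 ± 3.12 CPM in oscct and 45.9 ± 0.3 CPM in CK (SD, n = 3 each), both higher in oscct. LOC_Os01g62920, taken as qSH1 from general knowledge, was at 152 ± 5.56 CPM in oscct and 196 ± 6.61 CPM in CK. OsSh1 was at 64.9 ± 1.04 CPM in oscct and 111 ± 3.01 CPM in CK (SD, n = 3 each). Both were lower in oscct. Markers of other tissues differed between the groups as well. The 3 stamen and lodicule loci, the MADS-box genes SPW1, MADS2 and MADS4, summed to between 209.6 and 216.2 CPM in oscct and between 173.6 and 178 CPM in CK. In the other table they summed to between 314.9 and 332.1 CPM in ossh1 and between 260.4 and 268.1 CPM in WT. The stamen and carpel genes MADS3 and MADS58 were higher in ossh1, at 7.83 ± 0.699 and 13.6 ± 0.484 CPM in ossh1 against 2.73 ± 0.66 and 5.23 ± 0.382 CPM in WT (SD, n = 3 each). The third of that list, the carpel gene DL, was lower, at 1.48 ± 0.378 CPM in ossh1 and 4.59 ± 0.777 CPM in WT (SD, n = 3 each), and was the 1 of 3 listed for oscct, at 2.09 ± 0.38 CPM in oscct and 0.75 ± 0.113 CPM in CK. Of the 3 tapetum genes, C6 was at 0 in all ossh1 and WT libraries, and the list summed to between 3.1 and 3.67 CPM in ossh1 and between 5.65 and 6.85 CPM in WT; none was listed for oscct. The 2 loci taken as green tissue markers were lower in both mutants, summing to between 120.8 and 121.6 CPM in oscct and between 263.3 and 282.2 CPM in CK, and to between 198.9 and 209.8 CPM in ossh1 and between 383.6 and 392.8 CPM in WT. The part of tissue make-up in the changes of the gibberellin genes was not tested.

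The spread between replicates differed among the genes. The coefficient of variation of GA20ox1, GA2ox3, GID1, SLR1, SD1 and GID2 was under 10% in every group where they were measured. GA3ox2 reached 14.9% in CK, at 122 to 162 counts. The widest spreads were those of genes with 46 counts or fewer per library, 39.3% for GA2ox1 in ossh1, 36.1% for EUI in WT and 33.3% for GA2ox6 in WT.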

How the data were processed

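The authors deposited 1 table per comparison. Per the file headers both hold read counts: whole-number counts for ossh1 and WT, and estimated counts for oscct and CK, of which 58.5% are whole. The submitters' processing notes name the build IRGSP-1.0 and the tools DESeq2, HISAT2 and RSEM 1.3.1 without a role; strand use in counting and the step that removed rows of small difference from the oscct table are not given in the sources used here.

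Rows of 1 ID were summed in the oscct table, 11688 IDs from 13301 rows, and rounded. Each mutant was tested against its own control with edgeR 4.0.16 in R 4.3.3 (filterByExpr, TMM, glmQLFit and glmQLFTest, no replicate block), and the difference between mutants in 1 model of 12 libraries, with scaling from each full table. The procedures were tested on simulated data in which most genes were equal between groups and no rows were removed. That setting is unlike the oscct table, so it cannot show how the tests behave there. DESeq2 1.42.0, other scalings and filters, a replicate block and each library left out were the alternatives. Per the labels each replicate pools 5 plants.

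The members and lists were chosen with earlier results of these data known. All members are named; other loci were named if called without overlap between groups in either table, the 8 with the largest change; KS1, SLRL1, SPY, GAMYB and GA20ox3 were added after their values were seen. Of 19 listed loci, 2 lay over 25% of a chromosome away from the RefSeq gene of their name and were set apart. No ID equals an entry of the reference table, which is of another assembly, so no coordinates, lengths or sequences are given, and the planned level per length was not computed. Figures were drawn with matplotlib 3.10.9.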

Additional observations from a re-analysis of the deposited data

Results flagged for a closer look

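For 6 of the 7 gibberellin genes in both tables, oscct and ossh1 differed in their change from control, by the test of the difference itself in 1 model of all libraries (edgeR, adjusted over 11643 IDs). The change in oscct exceeded that in ossh1 by 2.46 log2 units for GA20ox1, 2.10 for GA3ox2 and 0.21 for SLR1 (SE 0.072, 0.12 and 0.071). It was below that in ossh1 for GA2ox1, GID1 and GID2, with differences of -1.18, -0.67 and -0.47 (SE 0.34, 0.075 and 0.052). GID2 here stands for its ID, whose counts cannot be read as GID2 alone. These genes entered the test because they were listed for a difference in oscct, and 80.4% of all IDs tested differed, in either direction. The differences for SLR1 and GID2 moved most for their size with the scaling: with library totals alone they were 0.47 and -0.21.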

How the results depend on the processing

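Across the alternatives, 358 recomputed changes of the 10 gibberellin genes kept their direction and their side of the threshold, 13 lost the call and 2 reversed. GID1 in oscct turned to a log2 fold change of 0.083 with library totals alone, and SLR1 in ossh1, not called in any fit, was at 0.052 without ossh1 replicate 3, within a leave-one-out range from -0.074 to 0.052. The calls lost among the 10 were those of GID1 in oscct, EUI in ossh1 and GID2 in ossh1 named above. The 358 changes pool ossh1, oscct and the difference between mutants. In oscct and in the difference, genes entered only if listed for oscct, and 99.2% and 80.4% of all IDs tested were called. A call kept there says little about these genes. Among the other loci, CPS1 and SLRL1 in ossh1 lost their calls and KS1 gained one where stated above, and KO2, KAO, LOC_Os05g49930 and GAMYB, not called in ossh1 in any fit, changed sign in at least 1. Called genes in ossh1 numbered 7 of 10 (5 to 7 with 1 library left out), 7 with the replicate block and 4 in the fit of all libraries, which tests only IDs present in both tables, 7 of the 10. The 17 other loci gave 7 calls in ossh1 (5 to 7 with 1 library left out) and 4 in that fit, where 6 could be tested; with no filter or with the 2 loci set apart counted there were 8. In oscct, where being listed nearly fixes a call, the calls were 7 (6 to 7). For the other loci they were 6 in every fit of the same loci and 7 with those set apart. The difference between mutants was called for 6 genes throughout. Same-numbered libraries of mutant and control did not deviate together, with correlations from -0.062 to 0.029 over genes, so the replicate numbers were not taken as pairs; the block left 7 genes called in oscct, 7 in ossh1 and 6 in the difference. With library totals the IDs of the oscct table had a median change of 0.080 on the log2 scale, against -0.088 with TMM; they put 61.8% instead of 50.8% of the differing IDs higher in oscct. Counting the loci set apart, taking the rows of GID2 singly and leaving OsSh1 out of the abscission zone sum were chosen after seeing the data. Centring on the gap of the oscct table changed no call of a gibberellin gene. Low counts limit EUI, GA2ox1 and GA2ox6 in WT. Intervals cover the spread between these libraries only.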
